A study of Mus musculus with 11 samples.

Results

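The genes described here are 32 genes of macrophages and monocytes, the phagocytes of tissue and their circulating precursors, measured in bulk RNA from mouse ventricular myocardium. They were taken from a written list of mouse symbols, matched through Ensembl identifiers. The rule itself used no measured value, but the list was drawn up with earlier results of these data known. All 32 were found among the 46517 gene identifiers of the count table, and all 32 were among the 14619 genes that passed the filter on low counts. The 11 libraries formed 4 groups. KO TAC (3 libraries) carried floxed Lmnb2, the gene of lamin B2 of the nuclear lamina, with a Cre recombinase driven by the cardiomyocyte promoter Tnnt2, and had transverse aortic constriction (TAC), a suture around the aortic arch that loads the left ventricle with pressure. WT TAC (3 libraries) carried Tnnt2-Cre alone and had the same surgery. KO sham (3 libraries) and WT sham (2 libraries) were the same genotypes after sham surgery. By this description, Tnnt2-Cre was present in every group, and the deletion was directed at cardiomyocytes and not at macrophages. Mice were operated on at 10 to 12 weeks of age under isoflurane, and the protocol adds the local anaesthetic bupivacaine for TAC. How long after surgery the tissue was taken is not stated in the sources used here. One WT sham library is labelled WT and the rest of the controls Lmnb2 WT. Whether that library carried Tnnt2-Cre is not given by its genotype label.

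Macrophages of the adult heart come in several populations. Resident cells that were seeded before birth and renew locally are recognised in mice by Timd4, Lyve1, Folr2 and Cd163, whereas cells that arrive from blood monocytes carry the chemokine receptor Ccr2. Another state, described in fat tissue and atherosclerotic plaque, is known as lipid-associated and expresses Trem2 and Gpnmb. Lineage identity is set by the transcription factor PU.1, encoded by Spi1, and survival depends on signals through the receptor encoded by Csf1r. In pressure overload, resident cells and recruited monocytes are both known to take part in the response of the heart.

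Total counts lay between 14770383 and 17333227 per library. In CPM, the usual unit of counts scaled to library size, here after TMM scaling, Lmnb2 stood at 9.72, 3.24 and 4.46 in KO TAC, 2.86, 2.16 and 6.70 in WT TAC, 0.649, 1.81 and 2.43 in KO sham and 4.44 and 3.86 in WT sham. Because the targeted gene was not lower after TAC in the libraries labelled KO, every direction given for KO refers to libraries carrying that label. WT TAC 3 and KO TAC 1 stood apart from the other TAC libraries in their shares of ribosomal protein messenger RNA. These were 1.32% and 0.871% of counts, against 3.17% to 6.74% in the other 4. The sham libraries held 0.652% to 1.73%, so the share differed with surgery too. Titles of TAC and sham samples carry number ranges that do not overlap, so a batch that followed these numbers cannot be told apart from surgery. The letter ending each title is F in KO TAC 3, WT TAC 1 and KO sham 2 and M in the other 8. The labels give each library its own number but do not say that each is a separate mouse, and the p-values measure the spread between these libraries. In bulk RNA, fewer cells of a type and less RNA per cell cannot be told apart.

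Promoter windows of 250 bases before the RefSeq gene start (GRCm38.p6) were at hand for 23 of the 32 genes, in 28 windows. Lyve1, Clec4n, Tyrobp, Cd14, Csf1r, Adgre1, Msr1, Spi1 and Cd86 had none. They were searched on both strands for 4 motifs: the PU.1 core AGGAAGT, the AP-1 site TGANTCA, the C/EBP half-palindrome TTGCNNAA and the E-box CACGTG. The PU.1 core was found in 7 of the 28 windows (Fcgr1, Folr2, Lyz2, Mrc1, Ptprc and Retnla), against 7.69% of all 32851 promoter windows at hand, of the same length. The AP-1 site was found in 6 windows (Cd68, Cd84, Cybb, Folr2, Ms4a7 and Trem2), against 6.75% of all. The C/EBP motif was found in 4 windows (Cd68, Fcgr3 and Retnla), against 9.56% of all, and the E-box in 0 windows, against 6.02% of all. Some genes have overlapping windows, so 1 PU.1 match of Ptprc and the C/EBP match of Fcgr3 are each counted in 2 windows, which raises the counts of windows. A match describes these letters and not a bound factor. The windows of 4 genes are shown because they stand for the patterns below: Trem2 of the lipid-associated state, Lyz2 with the most counts, Ms4a7, which passed as higher in either genotype, and Retnla, which passed as lower. Another Ms4a7 window, chr19:11336147-11336396, lies directly before the GENCODE M21 start of that gene, holds none of the 4 motifs and is not shown. The Ms4a7 window that is shown lies inside the GENCODE M21 span of the gene. The windows with matches of Cybb, Ptprc and Fcgr3 and the AP-1 window of Folr2 also lie inside their genes. Capitals mark the motif matches, and each window reads 5′ to 3′ toward the gene start on the strand of the gene.
Trem2 (chr17:48346151-48346400, plus strand; AP-1 match at bases -9 to -3): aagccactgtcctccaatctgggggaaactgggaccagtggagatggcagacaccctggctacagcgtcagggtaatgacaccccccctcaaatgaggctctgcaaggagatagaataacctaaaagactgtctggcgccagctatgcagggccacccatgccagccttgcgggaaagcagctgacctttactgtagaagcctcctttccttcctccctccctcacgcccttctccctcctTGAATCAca
Lyz2 (chr10:117282273-117282522, minus strand; PU.1 match, on the other strand, at -100 to -94): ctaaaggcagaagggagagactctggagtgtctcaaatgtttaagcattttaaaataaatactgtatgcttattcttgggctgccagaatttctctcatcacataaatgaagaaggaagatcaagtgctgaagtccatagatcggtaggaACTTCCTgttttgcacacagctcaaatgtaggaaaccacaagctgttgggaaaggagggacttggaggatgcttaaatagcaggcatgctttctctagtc
Ms4a7 (chr19:11334696-11334945, minus strand; AP-1 match at -81 to -75): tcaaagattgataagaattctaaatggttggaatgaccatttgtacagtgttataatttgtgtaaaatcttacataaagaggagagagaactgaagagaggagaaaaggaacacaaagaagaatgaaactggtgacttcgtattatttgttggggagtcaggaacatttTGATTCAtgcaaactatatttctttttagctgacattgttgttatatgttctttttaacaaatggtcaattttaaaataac
Retnla (chr16:48842359-48842608, plus strand; PU.1 match, on the other strand, at -198 to -192 and C/EBP match at -134 to -127): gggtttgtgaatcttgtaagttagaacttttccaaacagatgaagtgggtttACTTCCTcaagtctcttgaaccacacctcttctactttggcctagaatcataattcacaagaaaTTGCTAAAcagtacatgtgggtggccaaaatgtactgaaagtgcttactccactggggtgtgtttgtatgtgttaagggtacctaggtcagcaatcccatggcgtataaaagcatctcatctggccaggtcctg

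By edgeR, most of the 32 genes were higher after TAC, the 4 resident markers did not pass and 1 gene, Retnla, was lower. By DESeq2, the resident marker Timd4 passed as lower in WT. In KO, TAC minus sham, 11 genes were higher and 1 was lower at an edgeR adjusted p under 0.05, where 3.32% of all genes tested were higher and 1.37% lower. In WT, 9 were higher and 0 lower, where 3.88% of all genes were higher and 3.04% lower. With both genotypes in 1 fit and genotype as a covariate, 26 were higher and 1 lower, where 10.6% of all genes were higher and 8.96% lower. The median log2 change of the 32 genes was 1.52 in KO, 1.67 in WT and 1.66 in the joint fit, beside 0.03, 0.05 and 0.05 over all genes tested. In either direction, 4.70% of all genes passed in KO, 6.92% in WT and 19.5% in the joint fit. An unadjusted p under 0.05 was reached by 25 of the 32 genes in KO (19.3% of all genes), 26 in WT (25.8%) and 28 in the joint fit (33.2%). All TAC libraries lay above all sham libraries for 17 genes over both genotypes (6.58% of all genes) and below them for 1 (7.01%). The KO and WT comparisons contrast different libraries, but both came from 1 fit on all 11 libraries with a shared estimate of spread. They are therefore not fully independent of each other. The joint fit uses the libraries of both and is not independent of them. For none of the 32 genes did KO minus WT pass by edgeR, after TAC or after sham surgery, and 5 and 0 of them had an unadjusted p under 0.05.

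Single libraries set how many genes passed within a genotype. Of the 12 calls in KO and the 9 in WT, 0 held in all 24 other settings, so each call named below for 1 genotype was lost in at least 1 of them. In KO, the count of higher genes was 4 without KO TAC 2 and 7 without KO TAC 3. It was 2 without KO sham 1, 4 without KO sham 2, 4 without KO sham 3 and 18 without WT TAC 3. The count over all genes moved the same way. It was 486 in the main fit and, in the same order, 266, 306, 174, 237, 190 and 678. WT TAC 3 is in neither KO group and enters through the shared filter, scaling and estimate of spread. In WT, leaving out WT TAC 1 gave 5 higher genes, leaving out WT TAC 2 gave 4 and leaving out WT TAC 3 gave 23. It fell to 0 once WT sham 1 was left out and to 1 for WT sham 2, and KO TAC 1, left out alone, gave 19. Leaving out both WT TAC 3 and KO TAC 1 gave 21 higher genes in KO and 25 in WT, where all genes gave 1081 and 2297. The joint fit moved less, with 20 to 27 higher genes when any 1 of the 11 libraries was left out and 27 without WT TAC 3 and KO TAC 1 together. Over all genes the joint fit gave 1545 higher genes, 976 to 1979 with any 1 library left out and 2688 without those 2 together. Of its 27 calls, 17 held in each of 23 other settings: Adgre1, Ccr2, Cd14, Cd68, Cd84, Clec4n, Csf1r, Cybb, Fcer1g, Fcgr1, Fcgr2b, Laptm5, Mpeg1, Ms4a7, Ptprc, Retnla and Trem2.

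**Figure D1:**
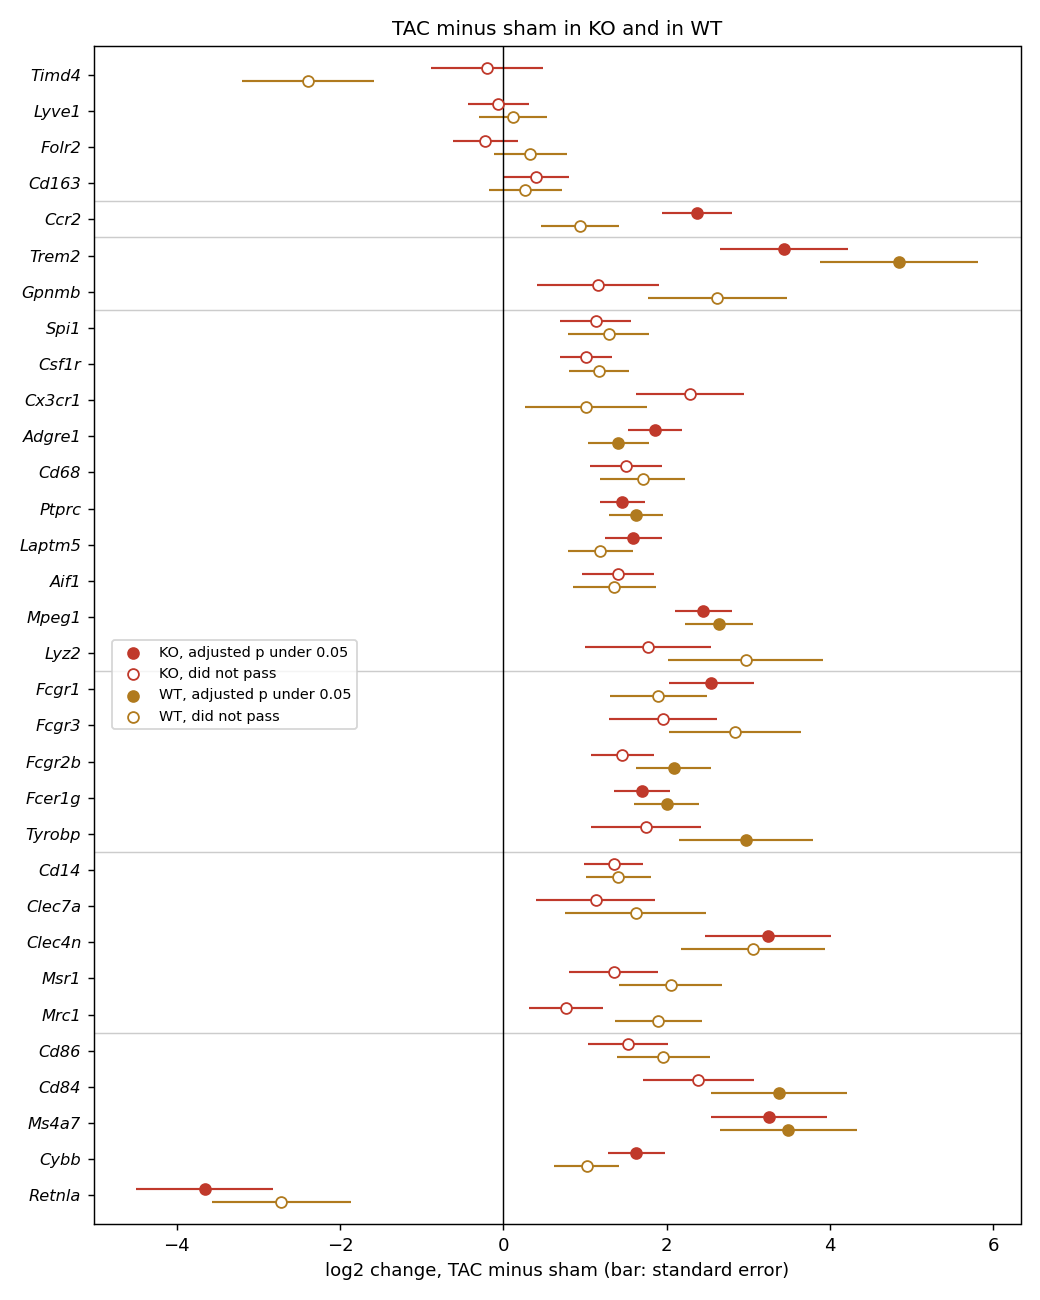
Log2 change, TAC minus sham, of each of the 32 genes in KO (red) and in WT (brown), with bars for the standard error and filled points for an edgeR adjusted p under 0.05. The resident markers at the top lie near 0 except Timd4 in WT at -2.39, and Retnla at the bottom lies at -3.66 in KO and -2.72 in WT.

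The resident markers did not follow the rest. Timd4, a receptor for phosphatidylserine on dying cells, measured 1.62, 0.289 and 2.35 CPM in KO TAC, 0.417, 0.175 and 0.208 CPM in WT TAC, 1.30, 2.05 and 1.53 CPM in KO sham and 1.13 and 1.73 CPM in WT sham. Each WT TAC library thus lay below each sham library, while KO TAC overlapped KO sham. These are low values, with 7, 3 and 4 counts in WT TAC against 18 and 22 in WT sham. The log2 change was -0.20 ± 0.68 in KO (standard error; edgeR adjusted p = 0.924) and -2.39 ± 0.81 in WT (edgeR adjusted p = 0.0910), and neither passed by edgeR. With DESeq2 the WT value was -2.39 with an adjusted p of 0.0437, a passing call. Without 1 library the WT value stayed negative, and it was -2.24 without WT TAC 3.

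Lyve1, a hyaluronan receptor that lymphatic endothelium also carries, measured 14.1, 8.21 and 13.7 CPM in KO TAC, 18.9, 13.6 and 10.3 CPM in WT TAC, 9.54, 19.2 and 8.61 CPM in KO sham and 10.1 and 16.1 CPM in WT sham. All 4 groups overlapped, and the joint change was 0.02 ± 0.27 on the log2 scale (edgeR adjusted p = 0.965). Folr2, the folate receptor beta of macrophages, measured 8.72, 7.63 and 9.61 CPM in KO TAC, 11.3, 11.8 and 3.79 CPM in WT TAC, 13.1, 8.63 and 8.54 CPM in KO sham and 8.82 and 5.35 CPM in WT sham. Its joint change was also 0.02 on the log2 scale, with a standard error of 0.30 (edgeR adjusted p = 0.967). Cd163, the scavenger receptor for haemoglobin bound to haptoglobin, measured 14.7, 6.30 and 12.9 CPM in KO TAC, 15.6, 15.8 and 7.95 CPM in WT TAC, 7.13, 12.5 and 5.90 CPM in KO sham and 8.75 and 13 CPM in WT sham. The groups overlapped here too, with a joint change of 0.35 ± 0.29 (edgeR adjusted p = 0.436). Summed over the 4 resident markers, KO TAC held 39.1, 22.4 and 38.5 CPM, WT TAC 46.2, 41.4 and 22.2 CPM, KO sham 31.0, 42.4 and 24.6 CPM and WT sham 28.8 and 36.2 CPM.

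Lymphatic markers bear on Lyve1. The 6 lymphatic genes listed (Prox1, Flt4, Pdpn, Ccl21a, Reln and Mmrn1) summed to 73.8, 43.7 and 43.6 CPM in KO TAC, 44.2, 35.6 and 55.8 CPM in WT TAC, 59.9, 71.6 and 78.6 CPM in KO sham and 66.5 and 83.2 CPM in WT sham. None was at 0 in every library, and in the joint fit 0 were higher and 1 was lower, where 10.6% and 8.96% of all genes were. Prox1, the transcription factor of lymphatic fate that cardiomyocytes also express, held 12.9 to 56.4 CPM of this sum. The part of lymphatic vessels in the Lyve1 level was not tested. Folr2 shares 975 exon bases with the antisense gene Gm10602, and the strand setting of the counting is not stated in the sources used here, so reads of the pair cannot be told apart.

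Ccr2, the receptor for CCL2 on recruited monocytes, was higher after TAC in KO and in the joint fit. It measured 20.4, 22.5 and 9.72 CPM in KO TAC, 6.14, 7.30 and 7.58 CPM in WT TAC, 2.97, 1.75 and 5.49 CPM in KO sham and 3.75 and 3.54 CPM in WT sham. No TAC library overlapped a sham library, and each KO TAC library lay above each WT TAC library. The log2 change was 2.37 ± 0.43 in KO (edgeR adjusted p = 0.00913), 0.94 ± 0.48 in WT (edgeR adjusted p = 0.234) and 1.73 ± 0.37 in the joint fit (edgeR adjusted p = 0.00593). In KO the call was lost without KO sham 1, at 2.28 and an edgeR adjusted p of 0.0550. KO TAC minus WT TAC was 1.32 ± 0.41 (unadjusted p = 0.00676, edgeR adjusted p = 0.747), and it ran from 1.14 to 1.64 over 24 other settings. The difference between the KO and WT responses to TAC was 1.43 ± 0.62 (unadjusted p = 0.0393, edgeR adjusted p = 0.992), so a passing call in KO and not in WT is not shown to be a difference between them.

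Cx3cr1, the fractalkine receptor of patrolling monocytes and of many tissue macrophages, had a like arrangement. It measured 13.6, 11.7 and 4.98 CPM in KO TAC, 2.86, 3.45 and 4.57 CPM in WT TAC, 0.556, 0.845 and 4.72 CPM in KO sham and 1.94 and 1.65 CPM in WT sham. Again each KO TAC library exceeded each WT TAC library, but KO sham 3 lay above all 3 WT TAC libraries. In KO the change was 2.29 ± 0.66 (edgeR adjusted p = 0.0700) and, without KO sham 3, 3.81 (edgeR adjusted p = 0.0140). The joint change was 1.73 ± 0.51 (edgeR adjusted p = 0.0311). That call was lost without KO TAC 2, KO sham 1, KO sham 2, WT sham 1 or WT sham 2, each alone, with edgeR adjusted p from 0.0518 to 0.0717. KO TAC minus WT TAC was 1.47 ± 0.63 (unadjusted p = 0.0379, edgeR adjusted p = 0.747). Ccr2 and Cx3cr1 were the 2 genes of the 32 whose KO TAC libraries all lay above the WT TAC libraries, and 0 had them all below. Of all genes tested, 4.41% were parted in the first way and 3.34% in the second. Cx3cr1 shares 78 exon bases with the antisense gene Gm33858.

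Of the lipid-associated markers, Trem2, a lipid-sensing receptor that signals through the adaptor encoded by Tyrobp, had the largest rise of the 32 genes in KO, in WT and in the joint fit. Trem2 measured 5.05, 15.5 and 12.0 CPM in KO TAC, 25.6, 43.4 and 3.06 CPM in WT TAC, 1.11, 0.905 and 0.973 CPM in KO sham and 1.0 and 0.630 CPM in WT sham. The 5 sham libraries lay within a narrow band, and the TAC libraries, all above it, spread 14.2-fold between WT TAC 2 and WT TAC 3. The log2 change was 3.44 ± 0.78 in KO (edgeR adjusted p = 0.0263), 4.85 ± 0.97 in WT (edgeR adjusted p = 0.0155) and 4.04 ± 0.63 in the joint fit (edgeR adjusted p = 0.000926). In KO the call was lost without KO TAC 2, KO TAC 3 or any 1 of the 3 KO sham libraries, with changes of 3.08 to 3.52 and edgeR adjusted p from 0.0612 to 0.108. In WT it was lost without WT sham 1 (5.23, edgeR adjusted p = 0.132) or WT sham 2 (4.56, edgeR adjusted p = 0.149). The joint call held in all 23 other settings, at 2.80 to 4.48.

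Gpnmb, a membrane glycoprotein of lysosomes and melanosomes, measured 1.76, 2.14 and 1.37 CPM in KO TAC, 3.69, 17.7 and 1.61 CPM in WT TAC, 1.02, 0.664 and 0.695 CPM in KO sham and 1.0 and 1.5 CPM in WT sham. A single library, WT TAC 2, stood far above the others, and KO TAC 3 did not reach WT sham 2. The joint change was 1.83 ± 0.59 (edgeR adjusted p = 0.0459), a call lost in 10 of 23 other settings, more than for any other of the 32 genes. Without WT TAC 2 it was 1.13 (edgeR adjusted p = 0.0633). It was lost as well without WT sham 1 (edgeR adjusted p = 0.155), WT sham 2 (0.133), KO TAC 2 (0.0839), KO TAC 3 (0.0509), KO sham 2 (0.0795) or KO sham 3 (0.0776). In WT the change was 2.62 ± 0.85 (edgeR adjusted p = 0.0810) with 3.09 (edgeR adjusted p = 0.0116) without WT TAC 3 and 1.09 (edgeR adjusted p = 0.359) without WT TAC 2. Melanocyte genes (Dct, Tyr, Mlana and Pmel), listed because Gpnmb also marks pigment cells, summed to 4.23 to 5.15 CPM in KO TAC, 3.04 to 3.40 CPM in WT TAC, 2.59 to 5.14 CPM in KO sham and 6.81 and 7.79 CPM in WT sham. The genes of this sum went apart in WT, with Dct lower at -2.06 ± 0.55 (edgeR adjusted p = 0.0431). Mlana stood at 7.28 ± 2.93 (edgeR adjusted p = 0.150), and Tyr and Pmel did not pass the filter on low counts.

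**Figure D2:**
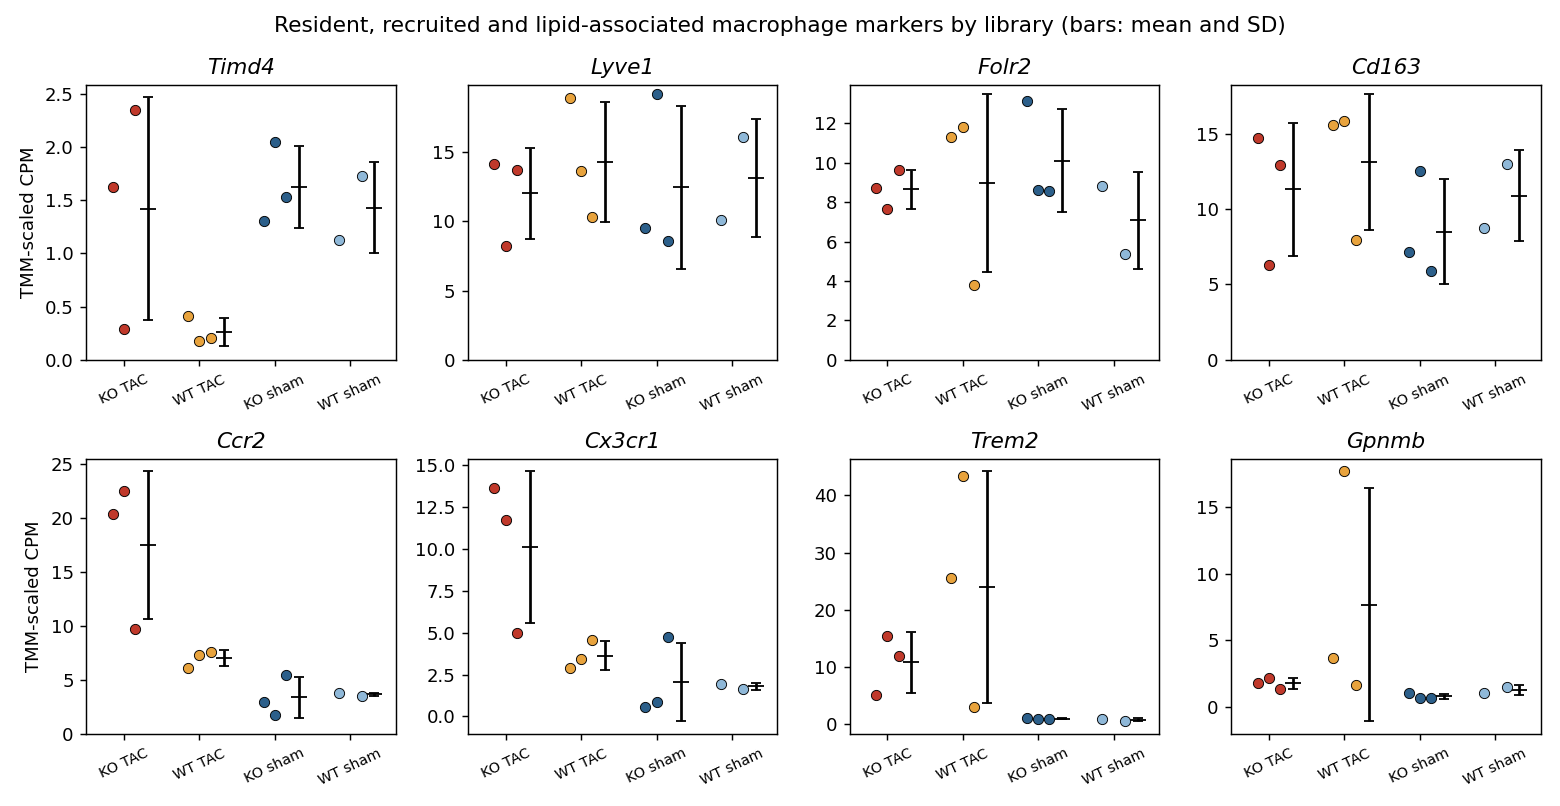
TMM-scaled CPM of 4 resident markers, the recruited marker Ccr2, Cx3cr1 and the lipid-associated markers Trem2 and Gpnmb, with 1 point per library in the 4 groups and the mean and SD beside them. Ccr2 and Cx3cr1 are highest in KO TAC, Trem2 and Gpnmb have their highest value in WT TAC 2 (43.4 and 17.7 CPM), and Timd4 is low in the 3 WT TAC libraries.

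The 10 genes of lineage identity and general macrophage function were all higher in the joint fit, with log2 changes of 1.08 to 2.53. Mpeg1, which encodes the pore-forming protein perforin-2, had the smallest p of the 32 genes. It measured 37.6, 42.4 and 33.5 CPM in KO TAC, 44.9, 62.8 and 27.8 CPM in WT TAC, 7.04, 5.49 and 8.27 CPM in KO sham and 4.81 and 9.68 CPM in WT sham. The lowest TAC library was thus well clear of the highest sham library. The log2 change was 2.45 ± 0.35 in KO (edgeR adjusted p = 0.00309) and 2.64 ± 0.42 in WT (edgeR adjusted p = 0.00559).

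Ptprc, the CD45 phosphatase of all leukocytes, was the steadiest of the 32 genes across the TAC libraries, with 16.1, 15.7 and 13.7 CPM in KO TAC, 20.4, 14.3 and 11.9 CPM in WT TAC, 6.12, 5.85 and 4.59 CPM in KO sham and 4.25 and 5.83 CPM in WT sham. Its highest and lowest TAC libraries differed 1.71-fold, and its change was 1.46 ± 0.28 in KO (edgeR adjusted p = 0.0125) and 1.63 ± 0.33 in WT (edgeR adjusted p = 0.0155). Csf1r, the receptor for CSF-1 and IL-34, measured 40.9, 29.4 and 21.1 CPM in KO TAC, 23.6, 49.0 and 28.3 CPM in WT TAC, 13.3, 17.7 and 14.2 CPM in KO sham and 15.6 and 14.2 CPM in WT sham. The groups were parted, and the joint change was 1.08 ± 0.23 (edgeR adjusted p = 0.00631), the smallest among the genes that passed upward. Csf1r shares 873 exon bases with Hmgxb3 on the opposite strand.

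Spi1, which encodes PU.1, measured 4.43, 6.13 and 6.12 CPM in KO TAC, 6.02, 10.2 and 2.70 CPM in WT TAC, 2.41, 2.29 and 2.92 CPM in KO sham and 2.69 and 2.44 CPM in WT sham. WT TAC 3 lay inside the sham range, and the joint change was 1.2 ± 0.32 (edgeR adjusted p = 0.0179). It lost its call without WT sham 1 (edgeR adjusted p = 0.0549) or WT sham 2 (0.0550). Adgre1, the F4/80 antigen, rose in KO by 1.86 ± 0.33 (edgeR adjusted p = 0.00825) as well as in WT, with 13.2 CPM or more in each TAC library and 8.42 CPM or less in each sham library. Laptm5, a lysosomal membrane protein of blood cells, rose in KO by 1.59 ± 0.35 (edgeR adjusted p = 0.0238) and stood at 1.19 ± 0.40 in WT (edgeR adjusted p = 0.0901), with 10.8 to 33.8 CPM in TAC and 6.30 to 8.39 CPM in sham libraries. Cd68, a lysosomal glycoprotein, and Aif1, the actin-binding protein IBA1, passed in the joint fit alone, by 1.59 ± 0.33 and 1.38 ± 0.32.

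Lyz2, lysozyme M, held the most counts and behaved differently from library to library. It measured 191, 772 and 1152 CPM in KO TAC, 1789, 1847 and 196 CPM in WT TAC, 293, 99.1 and 229 CPM in KO sham and 215 and 111 CPM in WT sham. Both KO TAC 1 and WT TAC 3 lay inside the sham range, while the other 4 TAC libraries were above it. Lyz2 alone made up 30.4% of the summed CPM of the 32 genes in KO TAC 1 and 69.9% in WT TAC 1. The joint change was 2.29 ± 0.62 (edgeR adjusted p = 0.0206), and it was 0.69 (edgeR adjusted p = 0.248) with the ribosomal protein share as covariate. The call was also lost without WT sham 1 (edgeR adjusted p = 0.0681), WT sham 2 (0.0674) or KO TAC 3 (0.0610). Reads of the near-identical neighbour Lyz1, listed at 7 to 109 counts a library, may be split between the pair.

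Fc receptors and their adaptors, which couple antibody binding to phagocytosis, were all 5 higher in the joint fit, with changes of 1.74 to 2.35 on the log2 scale. Fcer1g, the common gamma chain of these receptors, measured 26.6, 39.4 and 38.5 CPM in KO TAC, 30.7, 60.0 and 23.3 CPM in WT TAC, 11.5, 11.7 and 8.96 CPM in KO sham and 9.0 and 10.0 CPM in WT sham. No TAC library overlapped a sham library, and the change in KO was 1.70 ± 0.34 (edgeR adjusted p = 0.0153). Tyrobp, the adaptor DAP12 used by Trem2, measured 13.6, 45.5 and 41.0 CPM in KO TAC, 74.7, 101 and 14.3 CPM in WT TAC, 15.1, 5.13 and 9.66 CPM in KO sham and 11.3 and 4.72 CPM in WT sham. KO TAC 1 and WT TAC 3 overlapped sham, as with Lyz2. Tyrobp passed in WT at 2.97 ± 0.82 (edgeR adjusted p = 0.0493), a call lost in 14 of 24 other settings, and not in KO at 1.75 ± 0.67 (edgeR adjusted p = 0.168).

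The IgG receptors differed in which genotype passed. Fcgr1, the high-affinity activating receptor, changed by 2.55 ± 0.52 in KO (edgeR adjusted p = 0.0181) and by 1.90 ± 0.59 in WT (edgeR adjusted p = 0.0724). Fcgr2b, the inhibitory receptor, changed by 1.46 ± 0.38 in KO (edgeR adjusted p = 0.0504) and by 2.09 ± 0.46 in WT (edgeR adjusted p = 0.0212). The tests of these differences between genotypes gave unadjusted p of 0.407 for Fcgr1 and 0.291 for Fcgr2b, so neither gene was shown to respond differently. Fcgr3, the low-affinity activating receptor, passed in the joint fit, where it changed by 2.35 ± 0.52. Since receptors of this family are alike in sequence, reads may be split among them, and Fcgr2b also shares 155 exon bases with the antisense gene Gm38204.

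Among the pattern recognition and scavenger receptors, 4 of 5 were higher in the joint fit and Clec7a was not called. Clec4n, the fungal mannan receptor dectin-2, measured 6.86, 15.5 and 37.4 CPM in KO TAC, 30, 38.2 and 4.36 CPM in WT TAC, 2.97, 1.21 and 2.22 CPM in KO sham and 2.88 and 2.91 CPM in WT sham. All TAC libraries were above all sham libraries, and they spread 8.76-fold among themselves. Clec4n changed by 3.24 ± 0.77 in KO (edgeR adjusted p = 0.0327) and by 3.06 ± 0.88 in WT (edgeR adjusted p = 0.0572). Clec7a, the beta-glucan receptor dectin-1, measured 3.96, 13.2 and 16.8 CPM in KO TAC, 17.3, 18.3 and 4.67 CPM in WT TAC, 7.41, 0.905 and 7.29 CPM in KO sham and 5.94 and 2.76 CPM in WT sham, with a joint change of 1.34 ± 0.54 (edgeR adjusted p = 0.103).

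Mrc1, the mannose receptor CD206, measured 37.7, 28.0 and 31.7 CPM in KO TAC, 120, 53.8 and 22.2 CPM in WT TAC, 19.9, 19.6 and 17.7 CPM in KO sham and 16.2 and 18.9 CPM in WT sham. The TAC and sham libraries were parted, with WT TAC 1 well above the rest. The joint change was 1.26 ± 0.37 (edgeR adjusted p = 0.0308), lost without WT sham 1 (0.119), WT sham 2 (0.104) or KO sham 3 (0.0563) and at 0.57 with the ribosomal protein share as covariate. KO TAC minus WT TAC was -1.01 ± 0.44 (unadjusted p = 0.0415, edgeR adjusted p = 0.747). Cd14, the co-receptor for lipopolysaccharide, and Msr1, scavenger receptor A, passed in the joint fit with changes of 1.37 ± 0.26 and 1.66 ± 0.41. Msr1 lost its call without WT sham 1 (edgeR adjusted p = 0.0524) and stood at 0.99 with the ribosomal protein share as covariate.

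The last 5 genes held a steep rise and the one fall. Ms4a7, a 4-pass membrane protein of macrophages, measured 9.77, 30.1 and 56.4 CPM in KO TAC, 61.5, 52.6 and 12.8 CPM in WT TAC, 4.73, 1.51 and 3.89 CPM in KO sham and 4.63 and 2.83 CPM in WT sham. Its TAC libraries all exceeded its sham libraries, with KO TAC 1 and WT TAC 3 the lowest of the TAC libraries. It changed by 3.26 ± 0.71 in KO (9.60-fold, edgeR adjusted p = 0.0222) and by 3.49 ± 0.84 in WT (11.3-fold, edgeR adjusted p = 0.0293). Of 24 other settings the KO call was lost in 7 and the WT call in 8. Cd84, an adhesion receptor of the SLAM family, stood at 2.39 ± 0.68 in KO (edgeR adjusted p = 0.0661) and rose by 3.38 ± 0.83 in WT (edgeR adjusted p = 0.0317). Cybb, the catalytic subunit of the phagocyte NADPH oxidase, held 20.7, 20.5 and 20.5 CPM in KO TAC, 11.4, 21.0 and 7.63 CPM in WT TAC, 6.86, 6.70 and 6.32 CPM in KO sham and 4.94 and 8.27 CPM in WT sham. It rose by 1.63 ± 0.35 in KO (edgeR adjusted p = 0.0218) and stood at 1.02 ± 0.40 in WT (edgeR adjusted p = 0.135). In KO, libraries of each group nearly coincided, whereas WT TAC 3 lay below WT sham 2. Cd86, a co-stimulatory ligand for T cells, passed in the joint fit at 1.72 ± 0.36.

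Retnla, the secreted protein RELM-alpha of alternatively activated mouse macrophages, was the only one of the 32 genes that passed as lower. It measured 0.238, 0.289 and 0.458 CPM in KO TAC, 0.357, 0 and 1.09 CPM in WT TAC, 3.52, 3.38 and 5.70 CPM in KO sham and 3.38 and 3.15 CPM in WT sham. Each TAC library was below each sham library, and WT TAC 2 had 0 counts, where 3 counts would be 0.183 CPM of its unscaled total. The log2 change was -3.66 ± 0.84 in KO (edgeR adjusted p = 0.0286), -2.72 ± 0.85 in WT (edgeR adjusted p = 0.0727) and -3.22 ± 0.60 in the joint fit (edgeR adjusted p = 0.00262). In KO the call was lost when any 1 of the 6 KO libraries was left out, with changes of -3.94 to -3.37 and edgeR adjusted p from 0.0504 to 0.110. In WT it was gained without WT TAC 3, at -4.14 (edgeR adjusted p = 0.0105). Adipocytes also secrete this protein in mice. Listed fat cell genes (Adipoq, Plin1, Cfd, Lep and Cidec) summed to 0.0477, 0 and 0.458 CPM in KO TAC, 4.35, 2.45 and 35.7 CPM in WT TAC, 2.04, 0.724 and 3.40 CPM in KO sham and 2.63 and 0.157 CPM in WT sham, and their part in the Retnla values was not tested.

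Genes of the set differed in how evenly they were high across the TAC libraries. In KO TAC 2, KO TAC 3, WT TAC 1 and WT TAC 2, 27 of the 32 genes lay above the highest sham library. In KO TAC 1 it was 23 and in WT TAC 3 it was 19, beside 27.4% and 25.7% of all genes tested in those libraries and 28.8% to 35.5% in the other 4. Lyz2, Fcgr3, Tyrobp and Clec7a fell inside the sham range in both of these libraries. Mpeg1, Ptprc, Adgre1, Csf1r, Laptm5, Cd68 and Ccr2 stayed above it in all 6. So did Trem2, Ms4a7, Clec4n, Cd84, Fcgr1, Fcgr2b, Fcer1g, Aif1, Cd14 and Mrc1. WT TAC 3 was the lowest of the WT TAC libraries for 25 of 32 genes (38.0% of all genes tested), and KO TAC 1 the lowest of the KO TAC libraries for 18 of 32 (38.6%).

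Summed without Lyz2, the other 31 genes gave 436, 549 and 621 CPM in KO TAC, 772, 942 and 300 CPM in WT TAC, 207, 173 and 183 CPM in KO sham and 176 and 184 CPM in WT sham. WT TAC 3, the lowest TAC library, was still above each sham library. Endothelial genes (Pecam1, Cdh5, Kdr, Tie1, Emcn and Vwf) summed to 924 CPM in KO TAC 1 and 579 CPM in WT TAC 3 and to 241 to 412 CPM in the other 4 TAC libraries. Red blood cell genes (Hba-a1, Hba-a2, Hbb-bs, Hbb-bt and Alas2) ran the other way, with 254 CPM in KO TAC 1 and 294 CPM in WT TAC 3 against 765 to 3039 CPM in the others. The ribosomal protein share followed the same split. The part of RNA quality or tissue make-up in these values was not tested. Across the 32 genes, Spearman's rho between transcript length and the ratio of the other KO TAC libraries to KO TAC 1 was -0.38, and -0.15 for the same ratio to WT TAC 3, as a description over genes that share libraries.

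**Figure D3:**
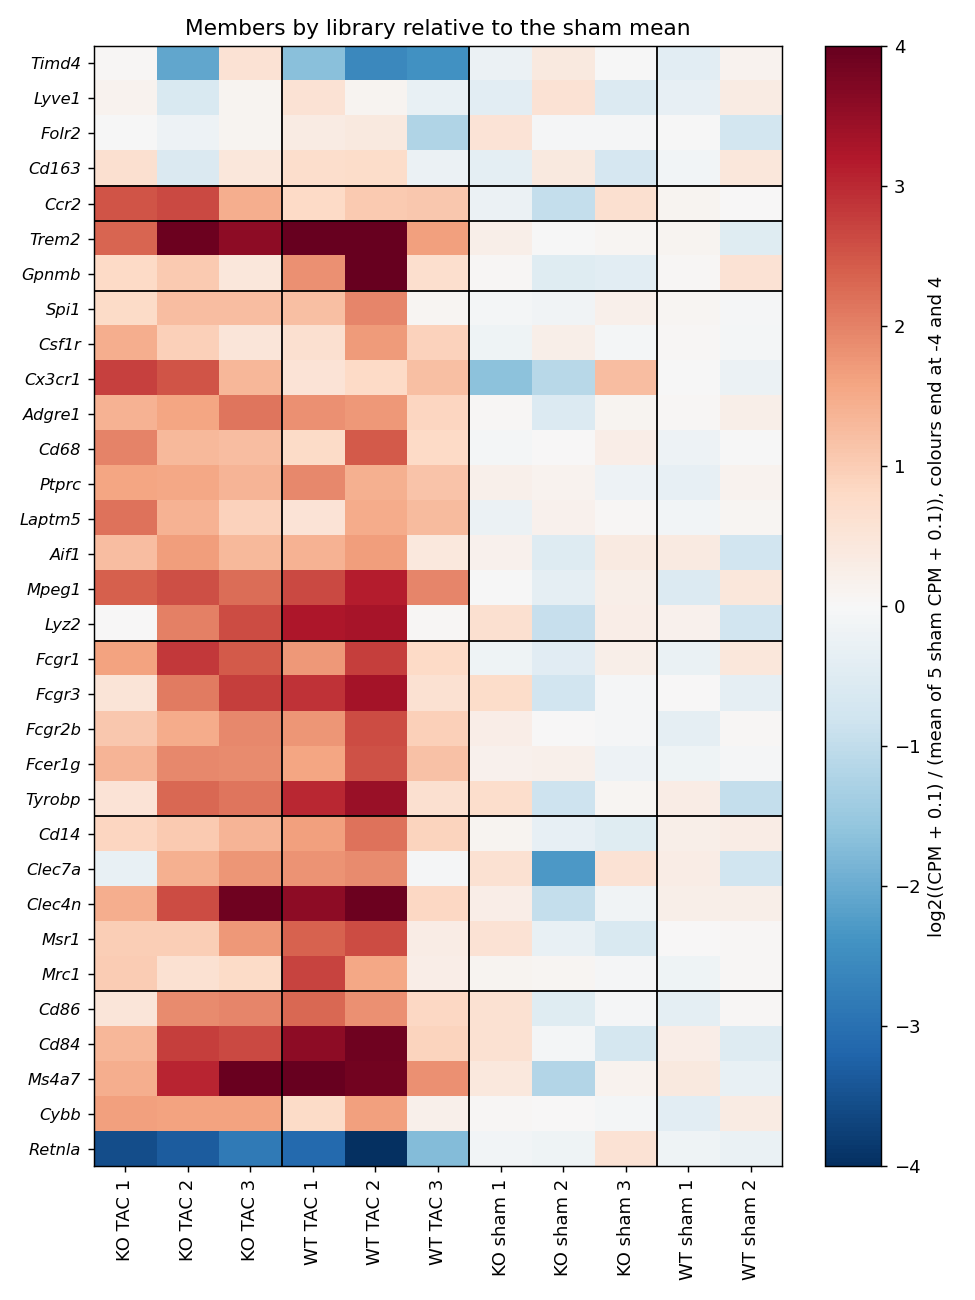
Log2 ratio of each gene in each library to the mean of the 5 sham libraries, with 0.1 CPM added to both, in the 4 groups from KO TAC to WT sham. KO TAC 1 and WT TAC 3 are paler than the other TAC libraries for Lyz2, Fcgr3, Tyrobp and Clec7a, whereas Mpeg1, Ptprc and Adgre1 are red in all 6, and Retnla is blue in all 6.

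**Figure D4:**
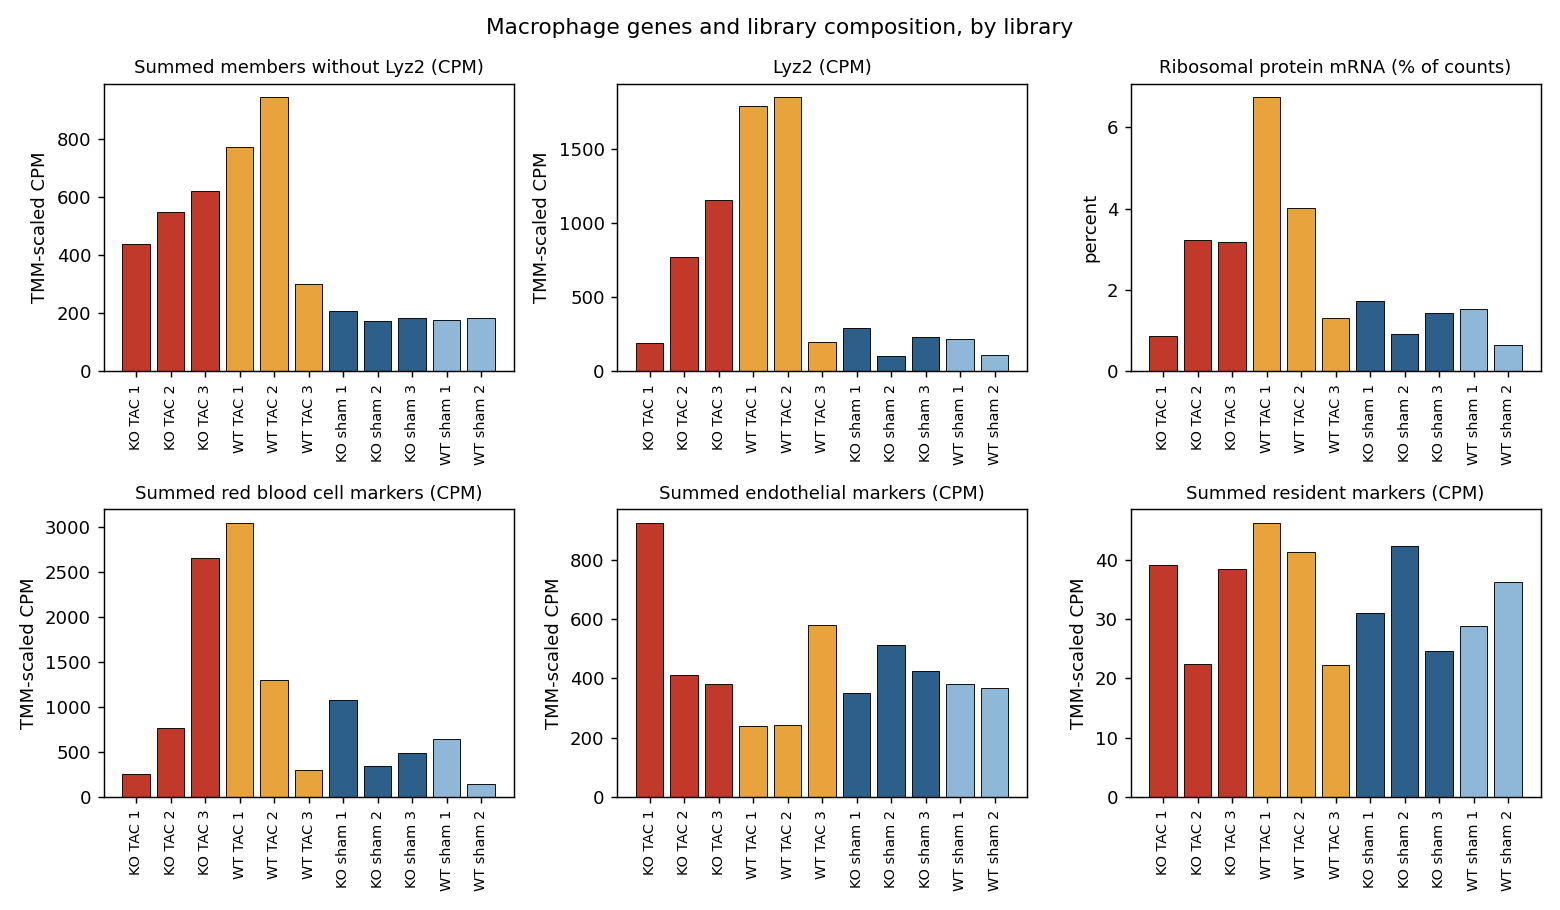
Bars give, for each library, the summed TMM-scaled CPM of the 31 genes without Lyz2, of Lyz2, of 5 red blood cell genes, of 6 endothelial genes and of the 4 resident markers, and the percent of counts in ribosomal protein messenger RNA. KO TAC 1 (191 CPM) and WT TAC 3 (196 CPM) are the TAC libraries low in Lyz2, and they have the highest endothelial sums of the TAC libraries (924 and 579 CPM).

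Libraries labelled KO and WT were set against each other within each surgery. Given the Lmnb2 values above, the contrast after TAC is between labels and is not shown to be one of Lmnb2 level. After TAC, 0 of 32 genes passed in either direction by edgeR, by DESeq2 or by limma-voom, where 0% of all genes tested passed by edgeR, and 5 had an unadjusted p under 0.05, beside 6.36% of all genes. These were Ccr2 and Cx3cr1, higher in KO, and Gpnmb and Mrc1, lower in KO, with Timd4 at 2.39 ± 0.75 (unadjusted p = 0.00774, edgeR adjusted p = 0.747). Gpnmb stood at -2.12 ± 0.70 (unadjusted p = 0.0104, edgeR adjusted p = 0.747), and it passed as lower when no filter on low counts was used. Trem2 stood at -1.15 ± 0.67 (edgeR adjusted p = 0.747), with overlapping libraries. The median over the 32 genes was -0.23, beside 0.01 over all genes, at 0.04 when WT TAC 2 was left out, -0.48 when WT TAC 3 was and 0.11 with the ribosomal protein share as covariate, so its sign depends on the setting.

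After sham surgery, differences between KO and WT were small in value, from -0.66 for Gpnmb to 0.50 for Folr2, and 0 of 32 passed by edgeR, DESeq2 or limma-voom. Also 0 of 32 had an unadjusted p under 0.05, beside 1.27% of all genes tested. Libraries were parted for Retnla, higher in KO, and Cd14, lower in KO, where 6.80% and 8.47% of all genes were. For Retnla the gap was below the digits given, with KO sham 2 and WT sham 1 both at 3.38 CPM. The test of whether TAC acted differently in KO than in WT gave 0 passing genes by these 3 tools and 1, Ccr2, with an unadjusted p under 0.05, beside 2.97% of all genes. Standard errors of these last differences ran up to 1.18 on the log2 scale (Retnla).

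**Figure D5:**
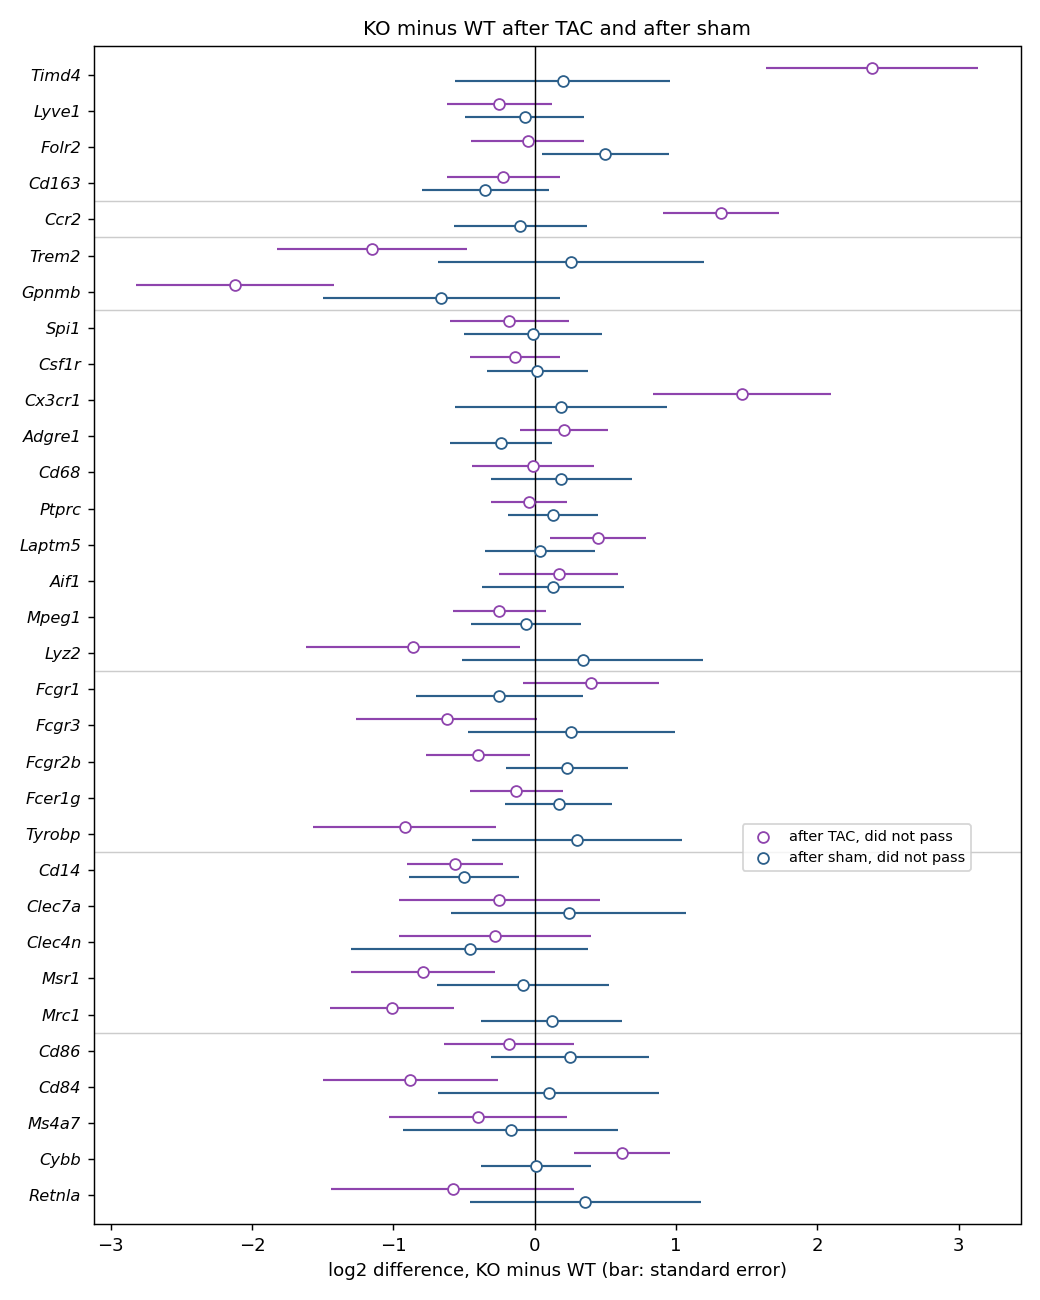
Log2 difference, KO minus WT, of each of the 32 genes after TAC (purple) and after sham surgery (blue), with bars for the standard error. All points are open because no edgeR adjusted p was under 0.05, and after TAC the values farthest from 0 are Timd4 at 2.39 and Gpnmb at -2.12.

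Per kilobase of the longest transcript, the order of mean levels was led by small molecules of phagocyte defence and signalling. Lyz2 stood at 536 CPM per kb in KO TAC, 971 in WT TAC, 157 in KO sham and 124 in WT sham. Tyrobp followed in the TAC groups with 55.9 CPM per kb in KO TAC and 106 in WT TAC, then Fcer1g with 51.0 in KO TAC and 55.6 in WT TAC, and Fcgr3 with 39.6 in KO TAC and 60.7 in WT TAC. With SDs of 17.3 and 44.3 CPM for Tyrobp against means of 33.4 CPM in KO TAC and 63.3 CPM in WT TAC, the order of these 3 does not exceed their spread. Folr2, the highest of the subtype markers per kilobase in the sham groups, stood at 8.37 in KO sham and 5.88 in WT sham, near Fcgr3 with 10.2 in KO sham and 8.46 in WT sham. Ccr2 stood at 3.06 CPM per kb in KO TAC, 1.22 in WT TAC, 0.594 in KO sham and 0.637 in WT sham, below Lyve1 with 4.15 in KO TAC, 4.93 in WT TAC, 4.31 in KO sham and 4.53 in WT sham. Trem2 stood at 2.27 in KO TAC and 5.02 in WT TAC, against 0.208 in KO sham and 0.170 in WT sham.

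Further genes of the same populations came from written lists. Of 10 tested of 12 other resident-associated genes, 2 were higher and 1 was lower in the joint fit, where 10.6% and 8.96% of all genes were. Mgl2, a galactose-binding lectin, fell by 1.71 on the log2 scale (standard error 0.37, edgeR adjusted p = 0.00614), with 6.91, 1.10 and 5.09 CPM in KO TAC, 2.80, 3.10 and 1.56 CPM in WT TAC, 12.6, 10.7 and 12.0 CPM in KO sham and 11.1 and 9.92 CPM in WT sham. Igfbp4, an IGF-binding protein, and Maf, a transcription factor, were the higher ones, at 0.83 ± 0.16 and 0.85 ± 0.27. Of 11 tested of 12 monocyte genes, 5 were higher and 0 lower, among them Vcan (versican, 2.49 ± 0.33), Plac8 (2.68 ± 0.49), Napsa (2.76 ± 0.50) and Ccr1 (3.29 ± 0.72), a chemokine receptor. Vcan is also made by fibroblasts.

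Of 12 further genes of the lipid-associated state, 7 were higher and 1, Lpl, was lower in the joint fit. Of all genes, 10.6% were higher and 8.96% lower there. Spp1, osteopontin, measured 13.5, 7.22 and 11.4 CPM in KO TAC, 37.2, 75.8 and 3.43 CPM in WT TAC, 1.2, 0 and 0.417 CPM in KO sham and 0.688 and 0.866 CPM in WT sham. Like Trem2, Spp1 was lowest among TAC libraries in WT TAC 3 and highest in WT TAC 2. It changed by 5.03 ± 0.81 (edgeR adjusted p = 0.00117), and Lgals3, galectin-3, by 4.48 ± 0.51 (edgeR adjusted p = 0.000122). Fabp5, a fatty acid chaperone, rose by 1.16 ± 0.23 and Cd63, a lysosomal tetraspanin, by 1.31 ± 0.31. Lpl, Cd63, Apoe and Lipa are also expressed by cells of the heart that are not macrophages.

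All 3 genes of the complement component C1q, a macrophage product, were higher in the joint fit, where 10.6% of all genes were. Their changes were 1.34 ± 0.26 (C1qa), 1.74 ± 0.32 (C1qb) and 1.24 ± 0.25 (C1qc). Of 9 tested of 10 growth factors and chemoattractants, 1 was higher and 0 lower, where 10.6% and 8.96% of all genes were. It was Ccl8, a ligand of several monocyte receptors, at 3.78 ± 0.64 (edgeR adjusted p = 0.00151), whereas Ccl2, the ligand of Ccr2, measured 3.81, 4.68 and 3.66 CPM in KO TAC, 2.38, 5.73 and 0.571 CPM in WT TAC, 3.06, 0.724 and 2.92 CPM in KO sham and 2.81 and 1.18 CPM in WT sham. For Ccl2 the KO TAC libraries lay above the KO sham libraries, WT TAC and WT sham overlapped, and the joint change was 0.72 ± 0.52 (edgeR adjusted p = 0.360). Of the 5 genes of MHC class II antigen presentation (H2-Aa, H2-Ab1, H2-Eb1, Cd74 and Ciita), 0 passed in any comparison by edgeR. They summed to 204, 209 and 167 CPM in KO TAC, 54.2, 87.7 and 235 CPM in WT TAC, 150, 110 and 150 CPM in KO sham and 136 and 108 CPM in WT sham, so that the TAC libraries with the most Lyz2, WT TAC 1 and WT TAC 2, held the least.

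Several of the 32 genes are shared with other blood cells, and markers of those cells were measured beside them. T, B and NK cell genes summed to 1.55 to 7.09 CPM over the 10 listed in any library, and 3 of the 10 passed the filter on low counts. Neutrophil genes (S100a8, S100a9, Csf3r, Cxcr2, Retnlg and Ly6g) summed to 3.00, 11.7 and 34.0 CPM in KO TAC, 15.1, 12.1 and 3.12 CPM in WT TAC, 5.0, 1.87 and 6.81 CPM in KO sham and 5.19 and 25.4 CPM in WT sham. Ly6g was at 0 in 9 of the 11 libraries. For dendritic cells, 0 of 4 tested genes passed in the joint fit, and for mast cells 0 of 4, where 19.5% of all genes did. Summed genes of fibroblasts and of cardiomyocytes moved with surgery as well, but not every gene of these lists did. Of the fibroblast genes, Lum, Col1a1 and Col3a1 were higher in the joint fit by edgeR, and Pdgfra, Tcf21 and Dcn did not pass. Of the cardiomyocyte genes, Tnni3, Ryr2 and Pln were lower, and Myh6, Tnnt2 and Actn2 did not pass. Fibroblast genes summed to 1923 to 2579 CPM in KO TAC, 2486 to 5348 CPM in WT TAC, 766 to 998 CPM in KO sham and 677 and 749 CPM in WT sham, and cardiomyocyte genes to 18583 to 22195 CPM in KO TAC, 18644 to 21432 CPM in WT TAC, 32408 to 35885 CPM in KO sham and 32222 and 36974 CPM in WT sham. The part of these shifts in the levels of the 32 genes was not tested.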

How the data were processed

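Ventricular RNA of 11 libraries was analysed from raw counts per Ensembl gene that the authors deposited; per the submitters' processing notes STAR 2.5.1, featureCounts, DESeq2 and GRCm38 were used, and their roles, strand setting and annotation are not stated in the sources used here. Symbols came from GENCODE M21. Surgery and genotype came from the labels. Counts were tested in R 4.3.3 with edgeR 4.0.16 (filterByExpr, TMM, glmQLFit and glmQLFTest) on all 11 libraries with 1 mean per group, 14619 genes tested and 2-sided p-values adjusted by Benjamini-Hochberg within each of 6 comparisons at 0.05; a fit with genotype and surgery as terms gave the joint comparison. Standard errors are the change over the root of F. DESeq2 1.42.0, limma-voom (limma 3.58.1), other scalings, filters, covariates and samples were alternatives. The procedure was tested on simulated data for the comparison of WT TAC with WT sham only. Changes were set there in genes of higher mean level, so low-count genes such as Timd4 and Retnla were not covered. At the depth of these libraries, 14770383 to 17333227 counts, 3 counts equal 0.173 to 0.203 CPM, counting error only. The 32 genes and all lists were chosen with earlier results of these data known. All 32 are named; genes of other lists are given by counts, with values for at most 4 a list among those that passed and others chosen after their values were seen. Columns left out numbered 0.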

Additional observations from a re-analysis of the deposited data

How the results depend on the processing

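No value of the 32 genes that passed changed sign under an alternative that was run. In WT, TAC minus sham, the main count of 9 higher genes was 21 with DESeq2 (2 lower, Timd4 and Retnla), 4 with limma-voom (1 lower), 20 with library totals in place of TMM, 22 with no filter on low counts (1 lower), 5 with the title letter as a covariate, 1 with titles ending in M alone, 3 with only the groups compared in the fit, 25 without WT TAC 3 and KO TAC 1 (1 lower) and 3 with each library's percentage of ribosomal protein counts in the model. With 1 library left out it ran from 0 to 23, and the count of lower genes from 0 to 1. In KO the main count of 11 was 21 with DESeq2, 6 with limma-voom, 23 with library totals, 22 with no filter, 1 with titles ending in M (0 lower), 21 without the same 2 libraries and 17 with the ribosomal protein share. Over all genes the count of higher genes in KO was 486 in the main fit. In the same order of settings it was 885, 290, 1325, 928, 87, 1081 and 819. With 1 library left out, the count among the 32 genes ran from 2 to 18, and lower genes from 0 to 1. The joint count of 26 was 16 with titles ending in M, a fit on fewer libraries, and 20 with the ribosomal protein share, where Gpnmb, Lyz2, Mrc1, Msr1, Spi1 and Tyrobp lost their calls. That share moved the median of the 32 genes to 1.22 in KO, 1.08 in WT and 1.29 in the joint fit, against 1.52, 1.67 and 1.66 without it. Over all genes the joint count of higher genes was 1545, with 967 for titles ending in M and 1352 with that share. Because the share itself differed between most TAC libraries and the sham libraries, this covariate cannot be fully told apart from surgery. After TAC, KO against WT gave 1 lower gene, Gpnmb, with no filter. The causes were not tested. Library totals moved the median of all genes to 0.49 in KO, 0.37 in WT and 0.45 in the joint fit, and raised the joint values of the resident markers too, to 0.41 (Lyve1), 0.42 (Folr2), 0.74 (Cd163) and -0.71 (Timd4), none passing. The fit on only the groups compared could not be run for the joint comparison or the interaction. No paired analysis was possible because the labels give no number shared between groups. Low counts limit several of the 32 genes, among them Timd4, Retnla, Gpnmb, Trem2 and Cx3cr1.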
